A study of Mus musculus with 6 samples.

Results

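The genes described here are 29 genes of cholesterol synthesis and sterol handling, measured by RNA-seq in regulatory T cells (Tregs) of the mouse colon. They were chosen by symbol from a list of the pathway, and all 29 had a row among the 24537 genes of the table. They fall into 5 regulators, 9 genes of the mevalonate arm, 11 genes of the sterol arm and 4 sterol handling genes. The 6 libraries came from Tregs of mice with colitis provoked by the hapten TNBS, put on the skin (150 µl of a 1% solution) and given into the rectum 7 days later (100 µl at 2.5%). Of these, 3 libraries carry the genotype label REV-ERB KO and 3 the label REV-ERB WT, and both groups received TNBS. The sources used here do not give strain, age, sex, how the Tregs were isolated, how many animals a library holds, or which REV-ERB exons or cells the knockout affects. If the libraries of a group are not from separate animals, the p-values measure a spread that may be technical.

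Cholesterol is built from acetyl-CoA in a chain of enzymes that first makes mevalonate and its isoprenoid products, and then closes and trims the sterol rings. The chain is switched on when cells lack sterol: SCAP carries the SREBP transcription factors out of the endoplasmic reticulum, INSIG proteins hold them back when sterol is plentiful, and the freed SREBPs switch on nearly every enzyme of the chain. Excess sterol instead activates LXR receptors, which switch on the exporters Abca1 and Abcg1 and the ubiquitin ligase Mylip. T cells turn the chain on when they are activated, and its isoprenoids anchor small GTPases to membranes. REV-ERBα, the nuclear receptor encoded by Nr1d1, represses transcription in the circadian clock and is known from the liver to affect SREBP activity through Insig2.

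The labels were first checked on Nr1d1, which stood at 169.2, 154.3 and 141.4 TPM (a level scaled to transcript length and library total) in the libraries labelled KO 1, 2 and 3. It stood at 66.3, 104.0 and 88.2 TPM in WT 1, 2 and 3, so every KO value lay above every WT value (difference 0.86, limma adjusted p = 0.129), against what the label would give for a loss of the transcript. The row spans the whole transcript and overlaps Thra on the opposite strand, and without the deleted exons it does not check the deletion, so all directions below follow the labels as given. Reads recovered from the values numbered 12641850 to 15890631 under the KO label and 9794480 to 12122575 under the WT label, so that depth moved with the label and its part in the results was not tested. The Treg marker Foxp3 lay at 171.4 to 235 TPM under the KO label against 451.4 to 663.7 TPM, and Il2ra at 252.4 to 370.7 against 275 to 358.7 TPM. The T cell genes Cd3e (168.6 to 224 against 191.5 to 291.6 TPM) and Cd4 (414.5 to 429.2 against 450.7 to 512.9 TPM) were present in all 6. Summed over their lists, the 8 Treg markers lay at 5489 to 6605 TPM under the KO label against 7016 to 7806 TPM and the 7 T cell markers at 2449 to 2747 against 2797 to 3154 TPM, both without overlap. Of the Treg list 2 of 8 and of the T cell list 1 of 7 had a log2 difference above 0, and in each list 3 lay wholly below. Markers of other cells were present too. All 17 epithelial markers had a log2 difference above 0, KO label minus WT label, in 11 of them without overlap of the groups, with summed levels of 3281 to 6452 TPM under the KO label against 2286 to 3229 TPM (Epcam 178.8 to 284.6 against 92.2 to 171.3 TPM, Krt8 474.4 to 1037 against 276.5 to 412.8 TPM). Summed macrophage and dendritic cell markers lay at 775.6 to 1409 against 729.6 to 1178 TPM and those of fibroblasts and smooth muscle at 278.0 to 513.9 against 207.8 to 481.4 TPM. Summed B and plasma cell markers lay at 518.2 to 2018 against 692.2 to 1474 TPM, neutrophil markers at 7.45 to 42.0 against 3.79 to 10.6 TPM, endothelial markers at 49.5 to 62.4 against 37.6 to 49.7 TPM, CD8 T and NK cell markers at 39.6 to 59.6 against 67.4 to 75.2 TPM, and hepatocyte markers at 1.56 to 4.95 against 0.958 to 9.51 TPM. A covariate built from the epithelial markers was fitted as an alternative (below), but it did not overlap between the groups and so cannot part these cells from the label. The part of the other cells in the results was not tested. No marker in these lists was at 0 in every library. In such bulk samples, fewer cells of a type and less RNA per cell cannot be told apart.

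Most enzymes of cholesterol synthesis had slightly higher mean levels under the KO label, while most of the regulators above them did not. Of the 20 enzymes of both arms, 16 had a difference above 0, with a median of 0.23 on the log2(TPM + 1) scale (KO label minus WT label). The 5 regulators had a median of -0.09, with 2 above 0, and over all 13211 genes tested the median was -0.00, with 6546 above 0. With the epithelial covariate 14 of the 20 enzymes and 3 of the 5 regulators were above 0, with medians of 0.07 and 0.01. Over all genes tested 6844 were above 0 in that fit. No single member passed the test, limma's moderated two-sided test with Benjamini-Hochberg adjustment over all genes. The number called was 0 of 29 in each direction, against 0% of all genes higher and 0% lower, and the smallest adjusted p among the members was 0.274 for Mvk. At an unadjusted limma p under 0.05, 2 of 29 members (6.90%) were higher, near the 7.8% of all genes, and 0 were lower, against 7.86%.

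In 10 of the 29 members (34.5%) every library labelled KO lay above every library labelled WT, while 10.6% of all genes tested did so. The reverse held for 1 member, Abcg1 (3.45%), against 10.4% of all genes. The ratios of the mean TPM, labelled KO over labelled WT, ran from 0.818 for Abcg1 to 1.46 for Abca1, and 0 members reached 1.5-fold. The members' median absolute difference of 0.22 was close to the 0.20 of all genes. With 3 against 3 libraries an exact two-sided permutation test cannot give a p below 0.1, which was the value for each of these 11 genes. Across the 29 members the median log2 difference was 0.16, and it was 0.10 without the library labelled KO 3 and 0.07 without WT 2. With an epithelial covariate, the mean log2(TPM + 1) over those 17 markers, it was 0.05, with 18 of 29 members above 0. Over all 13211 genes tested 6844 were above 0 in that fit, with a median of 0.01.

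**Figure D1:**
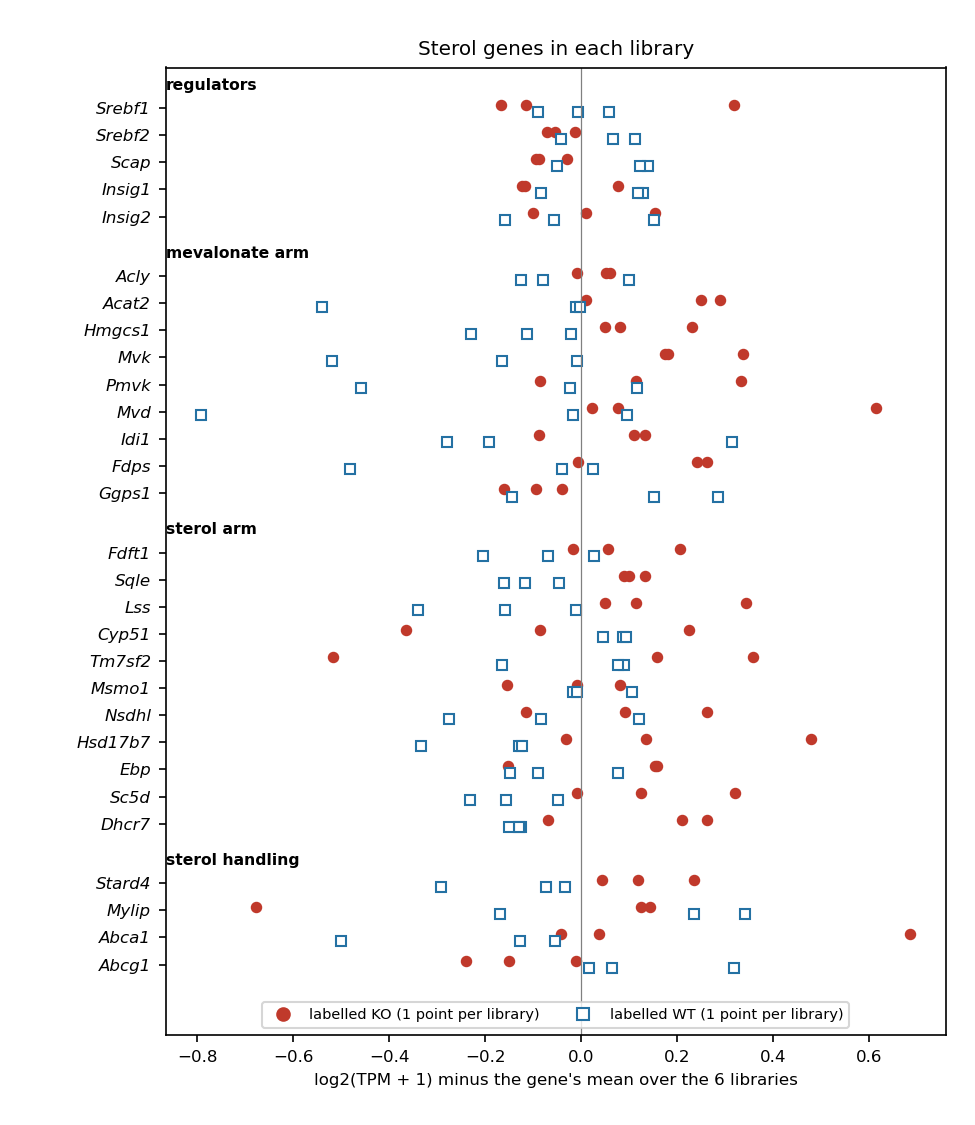
Level of each of the 29 genes in each library, as log2(TPM + 1) minus the gene's mean over the 6 libraries, with filled circles for libraries labelled KO and open squares for those labelled WT. In 10 genes, among them Mvk, Hmgcs1, Sqle and Stard4, all circles lie to the right of all squares, and in Abcg1 all lie to the left.

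All 29 members passed the filter on low values, with at least 45 reads in every library, so none entered through 1 group alone. Mean levels over the 6 libraries ran from 5.74 TPM for Tm7sf2 to 131.1 TPM for Srebf2, and 18 of the 29 were in the upper part of the genes tested, above their median. The most abundant were Srebf2 and Acly (103.1 TPM), followed by Insig1, Msmo1, Cyp51, Ebp and Hmgcs1 between 57.0 and 61.8 TPM. Those middle genes differ by less than their spread between libraries. The least abundant after Tm7sf2 were Abca1, Lss, Idi1 and Hsd17b7, at 7.00 to 9.03 TPM. The coefficient of variation within a group had a median over members of 10.3% under the KO label and 9.62% under the WT label.

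The promoters of the members were searched for motifs of factors known to act on this pathway, in the RefSeq windows of 250 bases before to 50 after each start site (GRCm38.p6, the build of mm10). A window was at hand for 24 of the 29 genes, the others being Abcg1, Fdft1, Fdps, Sqle and Stard4. The NF-Y box, CCAAT on either strand, is bound by a factor that works beside SREBP. It was in the windows of 21 of the 24 genes (87.5%), against 42.6% of the 9889 tested genes with a window and 37.4% of all 32851 windows. Counted by window, since some genes have several start sites, it was in 22 of 32 (68.8%) against 37.4% for the tested genes. The sterol regulatory element, searched as TCACNCCAC, was in 1 of the 24 genes, Hmgcs1 (4.17%), against 1.43% of tested genes. By window it was in 1 of 32 (3.13%), against 1.18% for the tested genes and 1.24% of all windows. Other forms of the element were not searched, nor were the genes without a window, so more members may carry it. The E-box CACGTG was in 6 of 24 genes (25.0%, against 11.7% of tested genes). By window it was in 7 of 32 (21.9%, against 9.8% for the tested genes and 7.15% of all windows). A loose form of the core motif of REV-ERB and ROR receptors, TNGGTCA with N any base, was in 4 of 24 genes (16.7%, against 11.5%). By window it was in 6 of 32 (18.8%, against 9.74% and 11.0%). Windows of a gene can overlap, so that 1 site can count more than once. The match in Pmvk reads TGACCGA on the opposite strand. These are matches of letters with no measure of binding, and the share of windows was not tested.

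Of these, 4 windows are shown. Mvk and Sc5d are the enzymes whose 95% interval, before adjustment, lies above 0. Hmgcs1 is the 1 gene of the 24 with a match to TCACNCCAC. Insig2 is the gene through which REV-ERBα is known to act on SREBP in the liver. Capitals mark every match to any of the 4 motifs, read 5′ to 3′ on the gene's strand. In Hmgcs1 (chr13:119690101-119690400, plus strand) they are the sterol regulatory element, which begins at position -137 from the start site, and 4 NF-Y boxes. In Mvk (chr5:114444019-114444318, plus strand) they are 5 NF-Y boxes and a receptor motif at position -54 that overlaps the NF-Y box at -50. In Sc5d (chr9:42264251-42264550, minus strand) they are an E-box at -98 and an NF-Y box at -24. In Insig2 (chr1:121332540-121332839, minus strand) they are 3 NF-Y boxes and a match to the loose receptor motif at -45. That match reads TTGGTCA and shares most of its letters with the NF-Y box at -46, so it may be no receptor site. Insig2 has 2 further windows, of which 1 holds a receptor motif at -199 and no NF-Y box and the other none of the 4 motifs.
Hmgcs1: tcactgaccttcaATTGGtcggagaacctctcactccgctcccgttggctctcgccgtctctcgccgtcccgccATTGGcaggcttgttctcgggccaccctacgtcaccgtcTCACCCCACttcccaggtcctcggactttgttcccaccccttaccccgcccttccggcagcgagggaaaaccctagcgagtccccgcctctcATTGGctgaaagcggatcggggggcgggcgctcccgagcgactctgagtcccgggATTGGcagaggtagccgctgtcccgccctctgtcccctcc
Mvk: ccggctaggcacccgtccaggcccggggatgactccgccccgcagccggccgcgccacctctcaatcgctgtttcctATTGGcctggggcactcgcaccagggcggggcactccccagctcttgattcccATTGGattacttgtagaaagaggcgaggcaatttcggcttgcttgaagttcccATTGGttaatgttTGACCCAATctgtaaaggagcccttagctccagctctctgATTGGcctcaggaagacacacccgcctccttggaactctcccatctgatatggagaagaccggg
Sc5d: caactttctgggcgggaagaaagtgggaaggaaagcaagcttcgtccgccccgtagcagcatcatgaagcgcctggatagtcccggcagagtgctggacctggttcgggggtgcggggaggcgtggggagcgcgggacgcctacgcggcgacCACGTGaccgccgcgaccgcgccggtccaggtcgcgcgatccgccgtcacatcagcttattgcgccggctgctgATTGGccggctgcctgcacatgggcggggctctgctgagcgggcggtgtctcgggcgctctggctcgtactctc
Insig2: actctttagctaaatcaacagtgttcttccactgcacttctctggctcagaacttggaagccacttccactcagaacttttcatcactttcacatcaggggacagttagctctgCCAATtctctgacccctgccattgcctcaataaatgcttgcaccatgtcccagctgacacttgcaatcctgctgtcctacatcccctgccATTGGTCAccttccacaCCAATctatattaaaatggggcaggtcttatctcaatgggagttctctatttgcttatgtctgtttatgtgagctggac

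The regulators were level or slightly lower under the KO label, with overlapping groups in all 5. Srebf2, which encodes the SREBP that favours cholesterol genes, stood at 124.6, 129.9 and 126.1 TPM under the KO label and at 127.2, 141.7 and 137.1 TPM under the WT label. Scap, the escort protein, was at 32.4, 32.2 and 33.7 TPM against 33.2, 38.0 and 37.6 TPM. In both genes the library labelled WT 1 sat among the libraries labelled KO and the other two WT libraries above them. The differences were -0.09 (SE 0.0886) for Srebf2 and -0.14 (SE 0.108) for Scap, with limma adjusted p of 0.642 and 0.556. Srebf1, whose products favour fatty acid genes, lay at 43.4, 41.8 and 59.0 TPM against 49.1, 46.9 and 44.2 TPM. Its highest and its lowest values were both in libraries labelled KO, and its difference of 0.02 was -0.13 without the library labelled KO 3. The Srebf1 row does not separate its isoforms, and it overlaps Rai1 on the opposite strand.

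The retention proteins overlapped between the groups too. Insig1, itself a target of SREBP, was at 65.0, 56.4 and 56.7 TPM under the KO label and at 58.1, 67.5 and 67.0 TPM under the WT label. The groups overlapped, with KO 1 close to WT 2 and WT 3, and WT 1 close to the other KO libraries (difference -0.11, limma adjusted p = 0.655). Insig2 stood at 12.2, 13.3 and 14.8 TPM against 11.7, 12.6 and 14.8 TPM, nearly the same set of values under both labels. Its difference was 0.04, with a 95% interval of -0.32 to 0.40 and a limma adjusted p of 0.911. That interval takes in differences as large as those of most enzymes below.

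In the mevalonate arm 8 of 9 genes had a log2 difference above 0, with a median difference of 0.24, and 3 of 9 lay wholly above under the KO label, against 10.6% of all genes tested. Mvk, mevalonate kinase (mm10 chromosome 5, 114444269 to 114460590, plus strand), stood at 13.9, 15.7 and 13.9 TPM under the KO label and at 10.8, 8.20 and 12.1 TPM under the WT label. Every library labelled KO was above the highest labelled WT, and the ratio of the group means was 1.40. Its log2 difference of 0.46 had an SE of 0.175 and a 95% interval of 0.06 to 0.87, but a limma adjusted p of 0.274. Hmgcs1, which makes HMG-CoA (chromosome 13, 119690351 to 119708260, plus strand), stood at 60.0, 66.7 and 58.7 TPM against 55.9, 48.2 and 52.3 TPM. Its groups did not overlap either (difference 0.24, SE 0.106, limma adjusted p = 0.324).

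Acat2, the cytosolic thiolase of the first step, was at 13.9, 13.5 and 11.3 TPM under the KO label and at 11.1, 7.39 and 11.2 TPM under the WT label. Its groups are parted by a narrow margin between KO 3 and WT 3, and its difference of 0.37 was 0.19 without WT 2. Acat2 has a close copy, Acat3, and the sources used here do not say how reads shared by such copies were counted. Fdps, farnesyl diphosphate synthase, stood at 52.3, 62.3 and 63.3 TPM against 53.5, 37.3 and 51.1 TPM, and Mvd, the decarboxylase, at 24.8, 25.8 and 37.9 TPM against 24.1, 13.7 and 26.2 TPM. In both the groups overlapped and WT 2 was the lowest, and without it the differences were 0.17 for Fdps and 0.20 for Mvd. Mvd had the largest difference of the 29 genes, 0.48, with a 95% interval of -0.13 to 1.09. The rest of this arm ranged from 0.24 for Pmvk, the next kinase, over 0.10 for the isomerase Idi1 and 0.07 for Acly, which supplies acetyl-CoA, to -0.20 for Ggps1. Single libraries moved these values: without WT 2 the difference was 0.07 for Pmvk, 0.29 for Idi1 and -0.10 for Ggps1, and without WT 1 it was 0.03 for Acly, -0.01 for Idi1 and -0.32 for Ggps1. Ggps1 makes the isoprenoid used for protein prenylation, outside the path to sterols, and stood at 12.8 ± 0.579 against 14.9 ± 2.36 TPM (SD, n = 3 libraries each). Its row stands for a non-coding transcript of the gene.

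In the sterol arm 8 of 11 genes had a log2 difference above 0, with a median of 0.16, and 5 of 11 lay wholly above under the KO label, against 10.6% of all genes tested. Sqle, squalene epoxidase and a rate-limiting step (chromosome 15, 59315092 to 59331193, plus strand), gave the tightest values of the 29 genes under the KO label. It stood at 33.6, 32.8 and 32.6 TPM under the KO label and at 27.2, 29.6 and 28.1 TPM under the WT label. The lowest library labelled KO thus lay clear of the highest labelled WT, although the ratio of the means was 1.17 (difference 0.22, SE 0.104, limma adjusted p = 0.360). Sc5d, the desaturase near the end of the chain, was at 47.8, 41.6 and 37.8 TPM against 34.0, 36.7 and 32.3 TPM. Its 95% interval of 0.01 to 0.58 lay above 0 before adjustment, as did that of Mvk and of no other member. These are the 2 of 29 members (6.90%) higher at an unadjusted limma p under 0.05, near the 7.8% of all genes. The limma adjusted p of Sc5d was 0.312.

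Dhcr7, the reductase of a last step, stood at 20.53, 26.1 and 25.1 TPM under the KO label and at 19.7, 19.6 and 19.4 TPM under the WT label. The WT values were almost identical and KO 1 lay just above them. Hsd17b7, a ketosteroid reductase, was at 12.8, 8.66 and 9.85 TPM against 6.84, 8.02 and 8.07 TPM. Lss, which closes the rings to lanosterol, was at 7.80, 8.20 and 9.79 TPM against 7.45, 5.72 and 6.62 TPM. Both were parted without overlap at levels under 13 TPM, with differences of 0.39 (SE 0.189) and 0.34 (SE 0.180) and limma adjusted p of 0.363 and 0.401. The Lss row overlaps another gene on the opposite strand, as does that of Fdft1 (0.16), the squalene synthase at the head of this arm.

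The other 6 enzymes of this arm overlapped between the groups. Cyp51, the lanosterol demethylase, had a mean of 56.9 ± 11.8 TPM under the KO label and 62.3 ± 1.14 TPM under the WT label (SD, n = 3 libraries each). Msmo1, which acts after it, stood at 58.8 ± 4.88 against 61.0 ± 3.01 TPM. Their differences were -0.15 and -0.05, and both were lowest in the library labelled KO 3. Without it the difference of Cyp51 was -0.01, and without KO 1 it was -0.30. Nsdhl, a sterol dehydrogenase, was at 0.16, the isomerase Ebp at 0.11 and the reductase Tm7sf2 at -0.00, and Tm7sf2, the gene of lowest level, took either sign depending on the library left out.

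**Figure D2:**
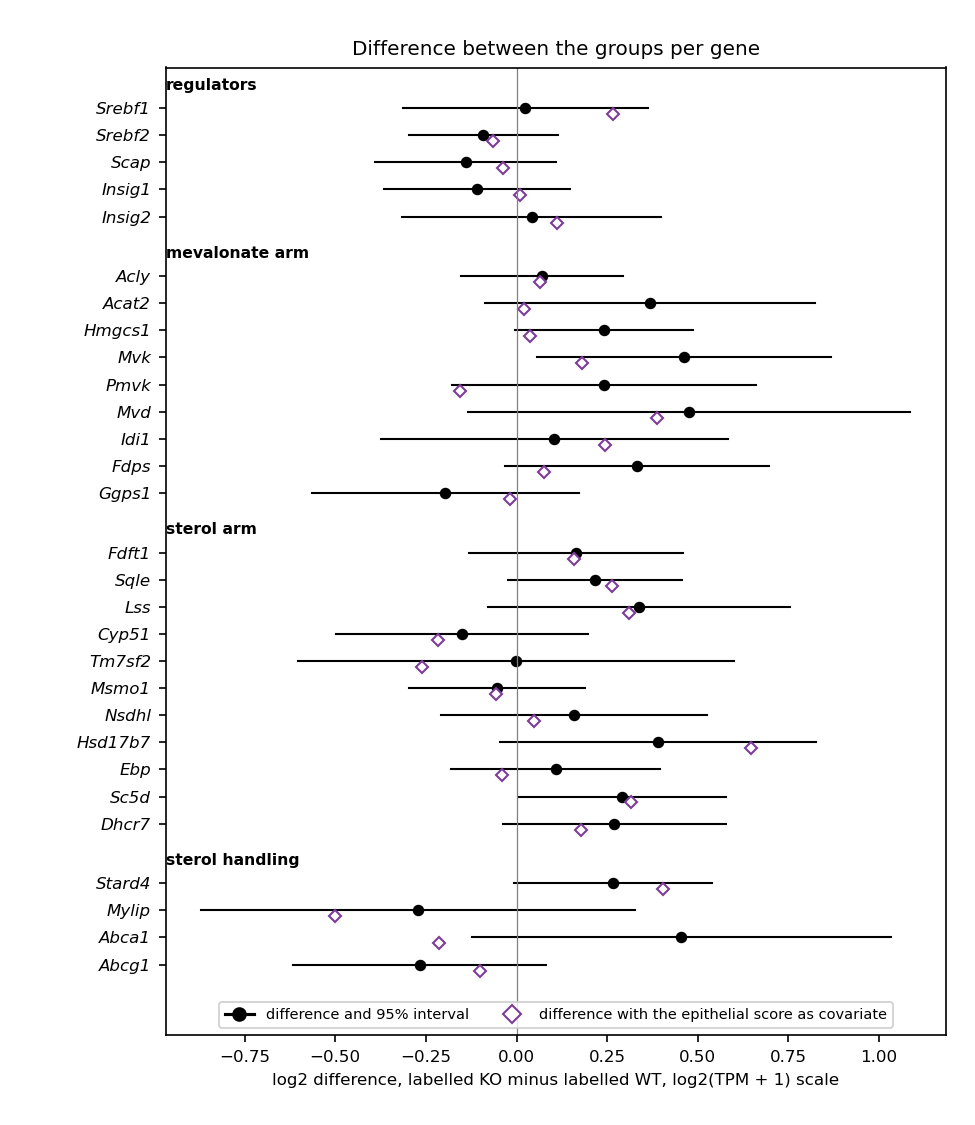
Log2 difference of each gene, KO label minus WT label, with its 95% interval from the limma fit (black), and the same difference with the epithelial score as a covariate (open diamonds). Only the unadjusted intervals of Mvk and Sc5d lie wholly above 0 (6.90% of the genes shown, near the 7.8% of all genes). The diamond of Abca1, like those of Pmvk, Ebp and Insig1, lies on the other side of 0 from its black point.

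Of the 4 sterol handling genes 2 had a difference above 0. Stard4, a cytosolic carrier of sterols and a target of SREBP, was at 39.7, 41.8 and 45.4 TPM under the KO label and at 31.2, 37.5 and 36.5 TPM under the WT label. The groups did not overlap, and the difference of 0.27 (SE 0.118, limma adjusted p = 0.328) was of the size seen for the enzymes. The exporters Abca1 and Abcg1, both LXR targets, differed in opposite directions. Abca1 stood at 6.96, 11.5 and 6.53 TPM against 6.10, 4.48 and 6.47 TPM. KO 2 stood far above all other libraries, and KO 3 and WT 3 were nearly level (difference 0.45, or 0.22 without KO 2, limma adjusted p = 0.413). The library labelled KO 2 also held the highest summed epithelial markers (6452 TPM) and macrophage and dendritic cell markers (1409 TPM). The part of such cells in the Abca1 values was not tested. With the epithelial score as a covariate the difference was -0.21 for Abca1, 0.41 for Stard4, -0.10 for Abcg1 and -0.50 for Mylip.

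Abcg1 was at 11.8, 12.6 and 14.0 TPM under the KO label and at 14.8, 17.9 and 14.3 TPM under the WT label. It was the only one of the 29 genes with every library labelled KO below every one labelled WT (difference -0.27, SE 0.151, limma adjusted p = 0.426). Mylip, the ubiquitin ligase that degrades lipoprotein receptors, stood at 14.4, 14.6 and 7.84 TPM against 11.6, 16.9 and 15.7 TPM. KO 3 was the lowest, and the difference of -0.27 (limma adjusted p = 0.637) was -0.00 without it. None of these 3 LXR targets passed the test.

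The library labelled WT 2 was the lowest of the 6 in 6 of the 9 mevalonate genes (Acat2, Hmgcs1, Mvk, Pmvk, Mvd and Fdps), and the median of the arm there lay 0.46 below the genes' means on the log2 scale. The same library was the highest in Idi1 and Ggps1, and in 3 of the 5 regulators. In the sterol arm it was the lowest in 3 of 11 genes, with a median of -0.13. WT 2 also had the lowest epithelial score, the mean log2(TPM + 1) of the 17 markers, at 6.08. The scores of WT 1 and WT 3 were 6.62 and 6.44, and those of KO 1, 2 and 3 were 7.01, 7.63 and 6.8.

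Without WT 2 the median difference was 0.19 in the mevalonate arm and 0.10 in the sterol arm. The epithelial score did not overlap between the groups, so that its share and that of the label cannot be told apart in these 6 libraries. With the score as a covariate the medians were 0.06 in the mevalonate arm, 0.16 in the sterol arm and 0.01 in the regulators, and the members' median SE went from 0.15 to 0.24. Of the 10 members that lay wholly above, Mvk was then at 0.18, Hmgcs1 at 0.04, Acat2 at 0.02, Sqle at 0.26, Sc5d at 0.32, Hsd17b7 at 0.65, Dhcr7 at 0.18, Lss at 0.31, Stard4 at 0.41 and Abca1 at -0.21. None passed the test with the covariate, and the difference between the arms was not tested.

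**Figure D3:**
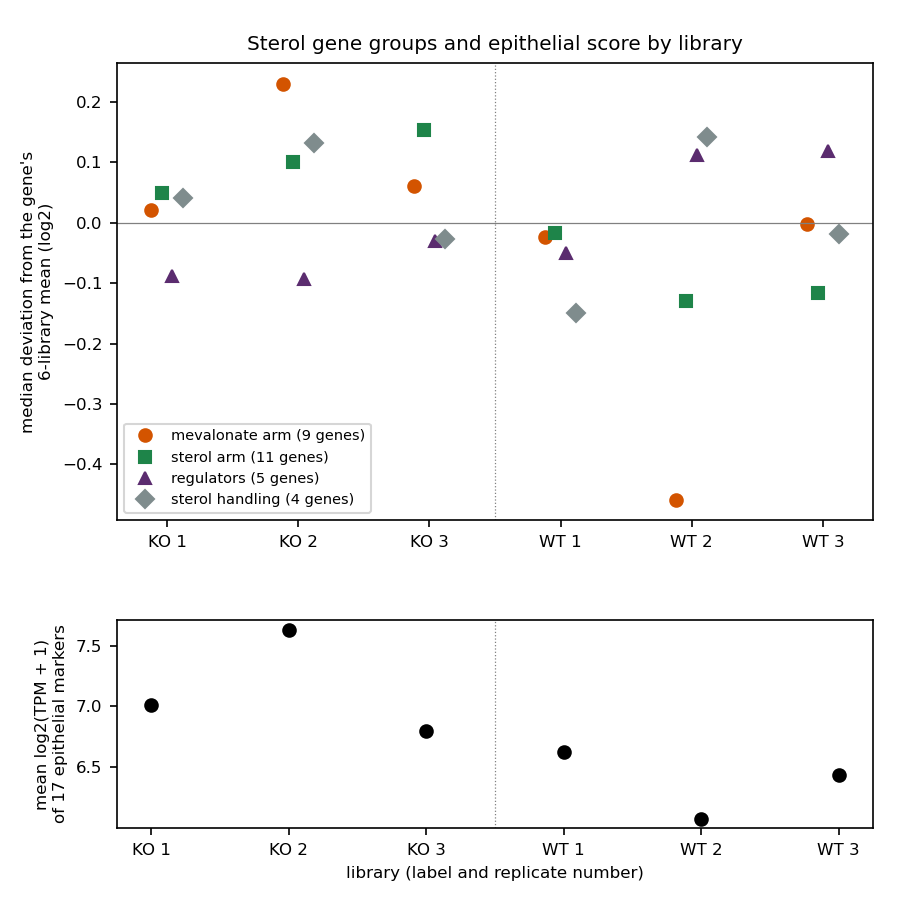
Upper panel, for each library, the median over the genes of each group of the deviation from the gene's mean over the 6 libraries (log2 scale), and lower panel, the mean log2(TPM + 1) of the 17 epithelial markers. The library labelled WT 2 has the lowest mevalonate median (-0.46) and the lowest epithelial score (6.08), and all 3 libraries labelled KO have positive medians in both arms.

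Neighbouring parts of the pathway were read from 3 further lists, in which no gene passed the test either. Of 28 tested genes of other sterol steps, transport and oxysterols, 13 had a difference above 0, with a median of -0.05, and 2 lay wholly above and 4 wholly below, near the 10.6% and 10.4% of all genes tested. Tmem97, a sterol-regulated membrane protein, was at 26.0, 22.1 and 22.5 TPM under the KO label and at 17.04, 16.3 and 18.7 TPM under the WT label. Its groups did not overlap (difference 0.42, limma adjusted p = 0.219). Gramd1a, which moves cholesterol from the plasma membrane to the endoplasmic reticulum, was at 108.6, 113.0 and 164.3 TPM against 165.5, 200 and 167 TPM, with a difference of -0.48 (limma adjusted p = 0.251). The libraries labelled KO 3 and WT 1 were nearly level. With the epithelial score as a covariate the median of this list was -0.08, with Tmem97 at 0.44 and Gramd1a at -0.10.

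Of 18 tested fatty acid synthesis genes that SREBP also switches on, 17 had a difference above 0, with a median of 0.14, and 4 lay wholly above, against 10.6% of all genes tested. Aacs, which feeds acetoacetate into lipid synthesis, was at 24.1, 24.5 and 21.2 TPM under the KO label and at 18.8, 12.8 and 13.9 TPM under the WT label. The desaturase gene Scd2 stood at 88.9, 118.5 and 127.7 TPM against 74.7, 47.7 and 80.3 TPM. Fads2, a desaturase of polyunsaturated fatty acids, was at 52.7, 82.0 and 42.1 TPM against 35.7, 10.5 and 31.4 TPM. In all 3 genes WT 2 was again the lowest library. The 3 differences were 0.60, 0.73 and 1.27, with limma adjusted p of 0.195, 0.211 and 0.244. With the epithelial score as a covariate 12 of the 18 were above 0, against 6844 of all 13211 genes tested. The median of the 18 was then 0.03, with Aacs at 0.30, Scd2 at 0.42 and Fads2 at -0.05.

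The last list held 12 tested genes, the LXR and RXR receptors, LXR targets and both REV-ERB genes. In it 7 had a difference above 0, with a median of 0.08, and the smallest p was that of Nr1d1, given above. Nr1h3, which encodes LXRα, stood at 7.40, 7.82 and 5.08 TPM under the KO label and at 3.67, 3.25 and 2.38 TPM under the WT label, a 2.18-fold higher mean (limma adjusted p = 0.176). Nr1h2, which encodes LXRβ and was the more abundant, lay at 80.9 to 94.8 against 97.1 to 101.6 TPM (difference -0.16, limma adjusted p = 0.453). Its groups lay in the other order without overlap, as did those of 10.4% of all genes tested. The LXR target Arl4c was at 51.4, 64.1 and 49.2 TPM against 75.4, 98.8 and 97.7 TPM (difference -0.71, limma adjusted p = 0.131).

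**Figure D4:**
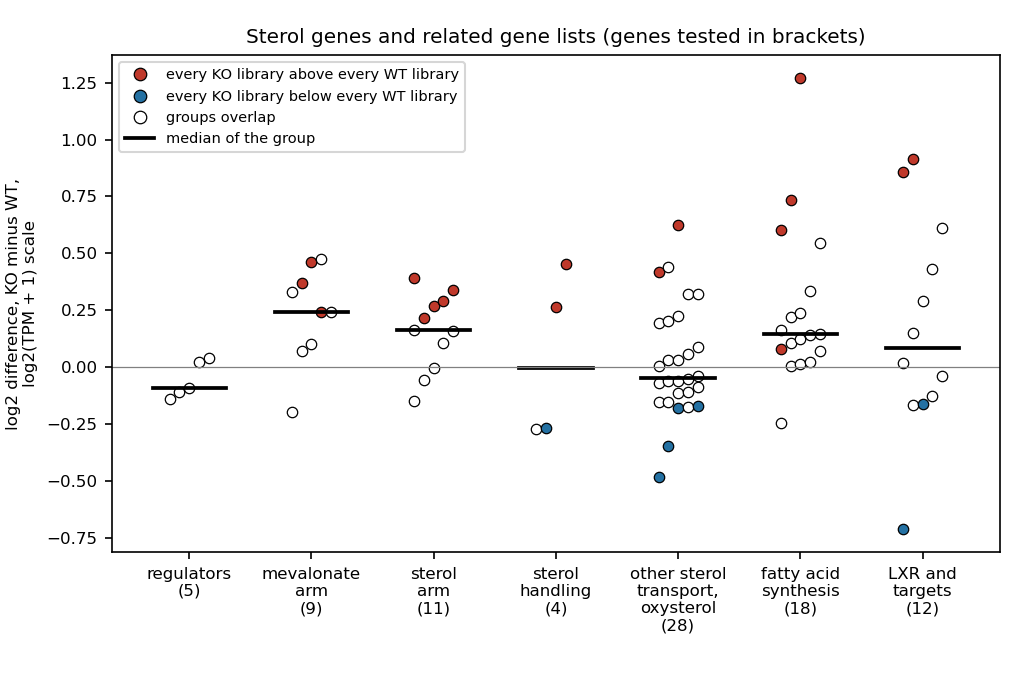
Log2 difference of every tested gene, KO label minus WT label, in the 4 groups of members and the 3 further lists, with bars at each group's median and colours for genes whose groups do not overlap. The medians of the mevalonate arm (0.24), the sterol arm (0.16) and fatty acid synthesis (0.14) lie above 0, and those of the regulators (-0.09) and of other sterol genes (-0.05) below.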

How the data were processed

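Poly(A) RNA was sequenced with a stranded kit, per the labels, in 6 libraries grouped by title. The authors deposited TPM, with each gene's RefSeq transcript, per the file headers. The submitters' processing notes name HOMER 4.9.1, STAR 2.5.3a, Trim Galore 0.4.4, FastQC 0.11.8 and mm10. The sources used here do not say whether counting used strand, so 3 members that overlap a gene on the opposite strand are uncertain. TPM times transcript length gave whole reads (within 0.1) for 100.00% of values checked per library, hence the depths.

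The 13211 genes reaching 1 TPM in 3 or more libraries were fitted with limma 3.58.1 (R 4.3.3, variance trend) on log2(TPM + 1), with the genotype label as the only term, and adjusted by Benjamini-Hochberg at 0.05; this scale understates differences of low genes. The fit was tried on simulated data, only with changes larger than the difference of any member. That trial does not show how well differences of the members' size are found. Permutation tests used scipy 1.17.1. The members and lists were chosen with earlier results of these data known. Values in every library are given for the regulators, the handling genes, the 5 genes of smallest p in each arm and the 3 of smallest p in each further list, except 1 gene that is not reported here; Nr1h2 was added after its values were seen. Alternatives were other pseudocounts, filters, scalings and weights, voom on recovered reads, an epithelial covariate, a replicate block and leaving out each library.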

Additional observations from a re-analysis of the deposited data

How the results depend on the processing

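No member passed the threshold under any of 17 alternatives (smallest limma adjusted p = 0.0873, Sc5d with array weights). Of all genes tested, 582 passed with array weights, 0 to 14 when 1 library was left out (14 without WT 1) and 0 in the other alternatives. Members lying wholly below were 2 with quantile normalization and with median-ratio size factors, and 1 to 6 when 1 library was left out, where 2 against 3 libraries part more easily (6 without WT 1, when 22.1% of all genes did so). Those lying wholly above ranged from 10 to 14, while the share of all genes doing so ranged from 9.09% with no filter to 19.3% without KO 3, where 10 of the 29 members did. The members' median was 0.0484 with the epithelial covariate and 0.0740 to 0.210 when 1 library was left out. In the replicate block fit, 0 genes passed and the median was 0.159. The deviations of same-numbered libraries from their group means had correlations of 0.0037, -0.22 and -0.041. With 3 libraries a group these values cannot show whether the numbers mark a shared animal or day, which the titles do not say.

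Over the alternatives 20 of 29 members kept their sign. With the epithelial covariate Abca1 was -0.21, Pmvk -0.155, Ebp -0.0405 and Insig1 0.00968. With array weights Srebf1 was -0.0365, Insig2 -0.0664 and Tm7sf2 0.00747. Tm7sf2 was 0.00969 with a pseudocount of 5, 0.00851 with size factors and 0.0320 with voom. When 1 library was left out, Tm7sf2 ran from -0.180 to 0.258, Srebf1 from -0.129 to 0.114, Insig2 from -0.0268 to 0.129, Idi1 from -0.00929 to 0.288 and Msmo1 from -0.108 to 0.00963. The causes were not tested. With 3 libraries a group, the members' median SE of 0.15 limits what can be called.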
